A study of Mus musculus with 13 samples.

Results

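The mitochondrial ribosomal proteins were taken as the protein-coding genes whose symbol is Mrpl or Mrps followed by a number and, for some, a letter. This naming rule, which used no measured value, gave 78 genes among the 47937 genes counted, 49 named for the large subunit and 29 for the small subunit. They were followed in RNA-seq libraries of DN3 and DN4 thymocytes, the CD4-CD8- double negative stages on either side of β-selection, sorted from C57BL/6 mice of 6 weeks. The mice were WT;Lck-Cre+ (Wt) or Opa1fl/fl;Lck-Cre+ (KO-labelled), so both genotypes carried a Cre recombinase driven by the T cell promoter of Lck, and the floxed Opa1 alleles were the difference between them. There were 3 DN3 Wt, 3 DN3 KO-labelled, 4 DN4 Wt and 3 DN4 KO-labelled libraries from 7 mice, 6 of which gave both stages, while mouse WT40 gave DN4 only.

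Mitochondrial ribosomes sit in the matrix and make the few proteins encoded by mitochondrial DNA, which are core subunits of the respiratory chain and ATP synthase. Their RNA comes from mitochondrial DNA, but all their proteins are encoded in the nucleus, made in the cytosol and imported. The small subunit reads the messenger RNA and the large subunit joins amino acids, and each holds proteins inherited from the bacterial ancestor beside others found only in mitochondria. Opa1 encodes the inner membrane GTPase that fuses inner membranes and shapes the cristae, where the newly made subunits are assembled.

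Libraries held 5926848 to 14148661 counts, of which 10712 to 49820 fell on the 78 genes. The DN3 library of WT05 stood apart. Its 10 most abundant genes took 42.5% of its counts, against 3.61% to 5.2% in the other libraries, and its share of counts on mitochondrial ribosomal proteins was 0.181%, against 0.313% to 0.414%. The counts of calls and the family medians of a comparison that uses it are also given without it. Levels are CPM, counts relative to a library size scaled by TMM, a factor that sets typical genes equal between libraries. That factor was 0.578 for the DN3 library of WT05 and 0.995 to 1.1 for the others. Opa1 itself was at 91.1 to 112 CPM in DN3 Wt, 88.6 to 93.8 in DN3 KO-labelled, 85.1 to 93.8 in DN4 Wt and 77 to 87.9 in DN4 KO-labelled libraries. The log2 difference of KO-labelled from Wt was -0.12 (SE 0.133) in DN3 and -0.08 (SE 0.0881) in DN4, with adjusted p of 1 and 0.945 (edgeR). Counts over the whole gene do not resolve the exons that Cre removes, so the genotype was not checked by Opa1 and the libraries are called by their labels. The stage labels were borne out by Il2ra, the CD25 gene that defines the DN3 gate, at 937 ± 308 CPM (SD, n = 3) in DN3 Wt and 11.4 ± 2.43 (SD, n = 4) in DN4 Wt.

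The 78 genes lie on 17 chromosomes, none of them X, with at most 11 on one chromosome (chromosome 11). RefSeq gives a promoter, 250 bases before to 50 after a start site on GRCm38.p6, for 69 of them. Many share their start region with a neighbour on the other strand. For 25 of the 69 genes (36.2%) the start of another protein-coding gene pointed away within 1000 bases, or overlapped by up to 200, against 8.86% of 16382 protein-coding genes and 16.8% of 4437 tested genes at the same range of levels. One such pair holds a member of each subunit, since the starts of Mrpl46 and Mrps11 are 42 bases apart on chromosome 7. The letters CCGGAAG, the core bound by ETS factors, were found on either strand in 26 of 69 genes (37.7%), against 13.4% of the protein-coding genes, 26.2% of those at the same levels and 8.86% of all 32851 promoters in the table. The NRF1 motif, known from many nuclear genes for mitochondrial proteins and shown in capitals for Mrpl12 below, was on either strand in 13 of 69 (18.8%), against 7.49%, 13.5% and 4.6%. AAGATGGCG, a YY1 type of site, was on either strand in 8 of 69 (11.6%), against 2.26%, 4.73% and 1.4%. TATAAA was in 5 of 69 (7.25%), against 14.1%, 7.17% and 13.6%, and the E-box CACGTG was in 5 of 69 (7.25%), against 9.22%, 12.6% and 7.15%. These are letter matches and not measured sites.

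Stretches of 5 of these promoters, free of annotated exons, show how the letters lie upstream of genes described below. They are printed 5′ to 3′ along the gene, with CCGGAAG (or CTTCCGG, its other strand) and the NRF1 motif in capitals. Mrps25 had, by a small margin, the largest fall in Wt cells among the genes called and holds none of the letters here (chr6:92184034-92184153, minus strand). Without the DN3 library of WT05, Mrpl19 fell more, at a log2 fold change of -0.57 against -0.43 for Mrps25. Mrpl12 and Mrpl34 are among the genes with the highest levels (chr11:120484493-120484612 and chr8:71464806-71464925, plus strand). Mrpl58 and Mrpl52 had 2 of the 3 smallest p between the genotypes in DN4 (chr11:115403632-115403751 and chr14:54426789-54426908, plus strand).
Mrps25: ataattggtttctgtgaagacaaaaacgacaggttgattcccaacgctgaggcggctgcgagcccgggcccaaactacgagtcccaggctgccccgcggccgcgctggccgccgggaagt
Mrpl12: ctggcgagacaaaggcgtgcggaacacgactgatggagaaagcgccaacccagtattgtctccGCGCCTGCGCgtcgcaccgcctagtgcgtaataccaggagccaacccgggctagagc
Mrpl34: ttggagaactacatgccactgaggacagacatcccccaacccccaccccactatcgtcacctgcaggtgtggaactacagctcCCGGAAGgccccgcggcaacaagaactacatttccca
Mrpl58: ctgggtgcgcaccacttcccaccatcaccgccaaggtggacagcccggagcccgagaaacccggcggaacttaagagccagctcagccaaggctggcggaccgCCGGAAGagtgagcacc
Mrpl52: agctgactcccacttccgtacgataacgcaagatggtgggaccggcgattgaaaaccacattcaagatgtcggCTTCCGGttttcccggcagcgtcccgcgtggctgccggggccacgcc

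Members with and without these letters had median changes from DN3 to DN4 on the same side of 0. The median log2 fold change in Wt was -0.09 over the 25 tested genes with CCGGAAG and -0.16 over the 43 without, and in KO-labelled mice it was -0.12 and -0.20. For the NRF1 motif it was -0.06 over 13 genes and -0.15 over 55 in Wt, and -0.09 and -0.16 in KO-labelled mice. For AAGATGGCG it was -0.14 over 8 genes and -0.14 over 60 in Wt, and -0.25 and -0.15 in KO-labelled mice. For the E-box it was -0.19 over 5 genes and -0.13 over 63 in Wt, and -0.09 and -0.16 in KO-labelled mice. TATAAA gave -0.10 over 5 genes and -0.15 over 63 in Wt, and -0.20 and -0.15 in KO-labelled mice. Without the DN3 library of WT05, the Wt medians were -0.24 with and -0.26 without CCGGAAG, and -0.13 with and -0.24 without the NRF1 motif. These differences were not tested.

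Of the 78 genes, 77 had counts and passed the filter in every comparison. Mrpl53 had no count in any of the 13 libraries. In the annotation, 82% of the 50-base stretches of its exons also occur in Gm42688, a gene that overlaps it on the same strand, and reads shared by overlapping genes may not be counted, so its 0 says nothing of its expression. Another 10 genes share at least 20% of their 50-base stretches with other annotated genes, among them Mrps34 (71.8%, with Nme3 and Mapk8ip3), Mrps25 (68.2%, with Nr2c2 on the opposite strand) and Mrpl19 (37%, mainly with Gcfc2 on the opposite strand), and their counts are uncertain.

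Per kilobase of exon, the 77 genes spanned 16.9-fold, from 3.83 to 64.8 CPM per kilobase. Large subunit genes had a median of 20.3 and small subunit genes of 14.4. The highest were Mrpl18, at 64.8 CPM per kilobase over the 4 groups and 51 to 80.7 over libraries, Mrpl12 at 64.5 (39.5 to 86.3) and Mrpl34 at 59.6 (41 to 72.3). Mrpl18 belongs to the central protuberance, where the large subunit meets the small one, Mrpl12 forms the stalk that recruits translation factors, and Mrpl34 is one of the smallest bacterial-type proteins. The lowest with counts were Mrps35 at 3.83 (3.23 to 4.52) and Mrps10 at 4.26 (3.22 to 5.22), both of the small subunit. Over the 76 pairs of neighbours in this order, the ranges over libraries overlapped in all 76, so neighbouring ranks were not told apart. The exon length used is the union over all annotated transcripts, which lowers the value of genes with long alternative ends.

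**Figure D1:**
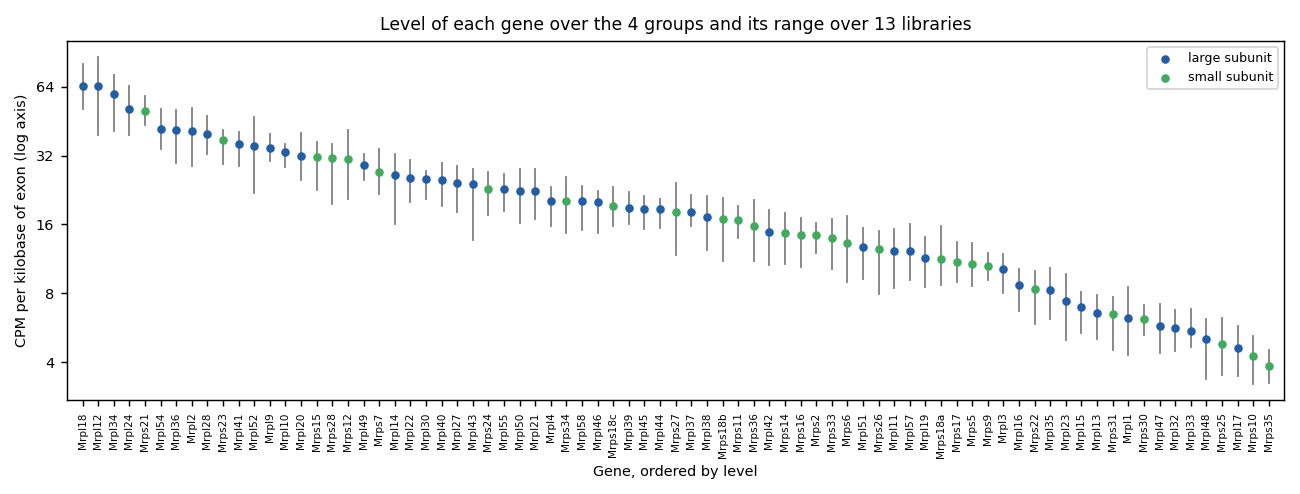
Level of the 77 genes with counts, in CPM per kilobase of exon on a log axis, ordered from the highest to the lowest. Points are means over the 4 group means, blue for the large and green for the small subunit, and bars run from the lowest to the highest of the 13 libraries. Levels fall without a break from 64.8 for Mrpl18 to 3.83 for Mrps35.

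Across libraries the genes varied little. The coefficient of variation over the 13 libraries had a median of 13.4%, with the lowest in Mrpl10 (7.07%) and the highest in Mrps12 (22.3%). Over the 5614 genes with mean levels in the same range (20 to 114 CPM) the median was 16.9%, and 62 of the 77 genes lay under it. Without the DN3 library of WT05 the medians were 12.8% and 15%, with 53 of the 77 genes under the latter. Mrpl10, whose protein anchors the stalk, was at 50.6, 60 and 53.8 CPM in the DN3 Wt libraries of WT05, WT46 and WT48, at 48.6, 55.4, 59.8 and 59.7 in the DN4 Wt libraries of WT05, WT40, WT46 and WT48, at 58.3, 54.8 and 61.5 in DN3 of mice KO45, KO49 and KO51, and at 55.8, 60.6 and 54.7 in their DN4 libraries. All 4 groups overlap.

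**Figure D2:**
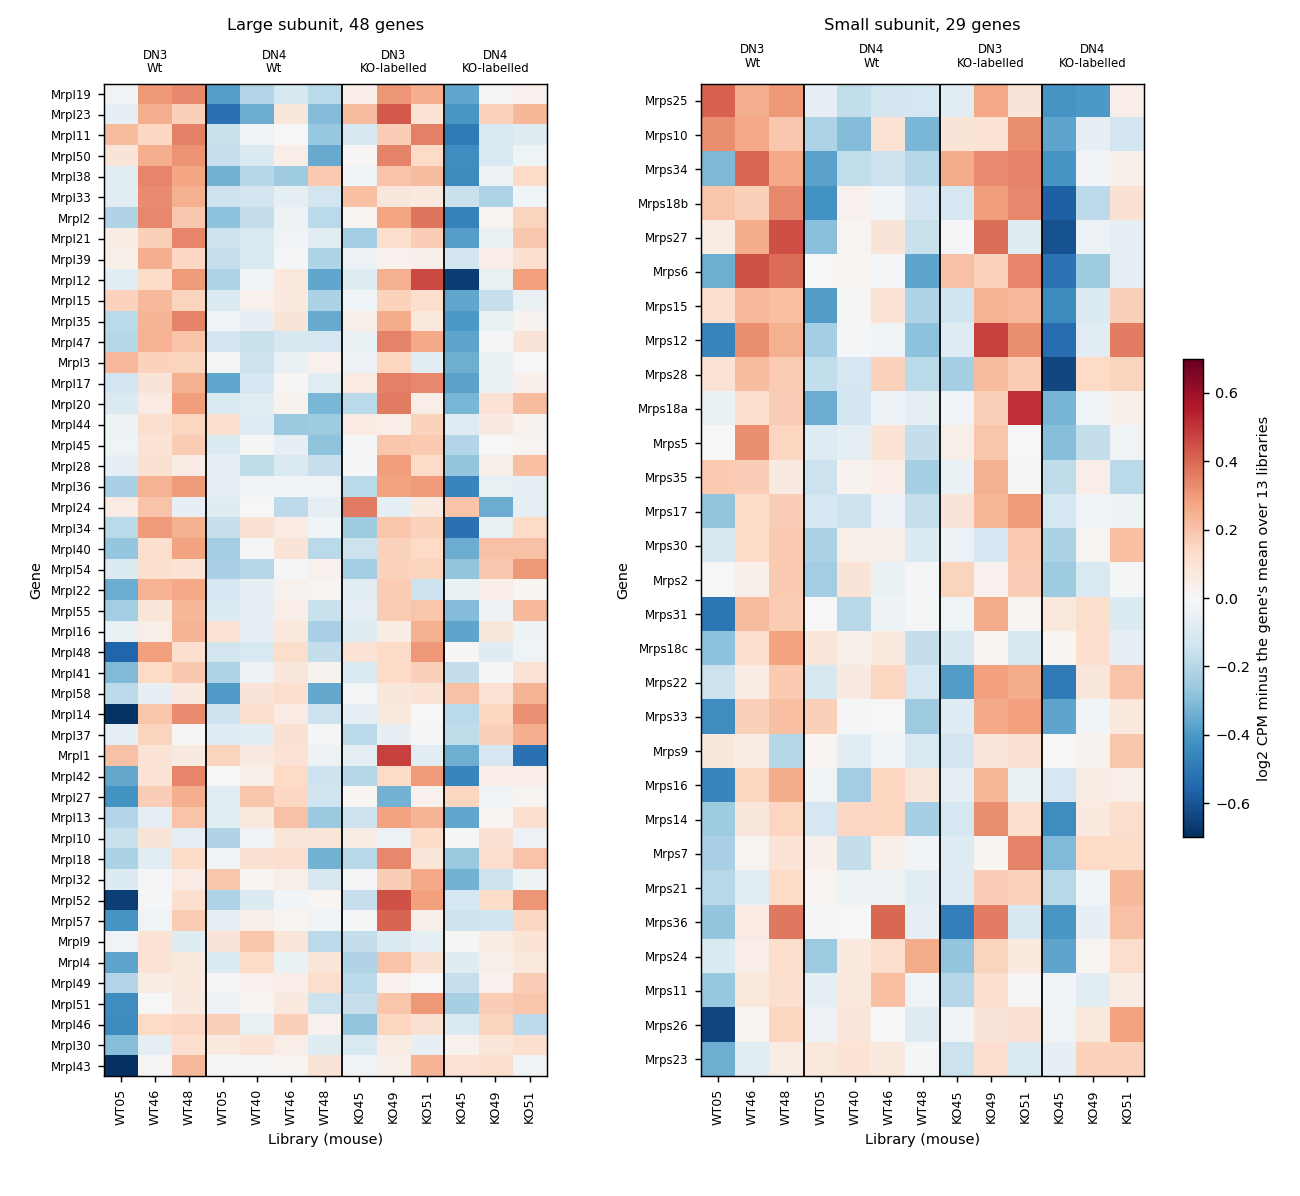
Level of each tested gene in each library, as log2 CPM minus the mean of the gene over the 13 libraries, for 48 large subunit genes (left) and 29 small subunit genes (right). Columns are libraries named by mouse and grouped by stage and genotype, rows are ordered by the fitted change from DN3 to DN4 in Wt, and colours saturate at 0.7 either way. Whole columns differ, with the DN3 library of WT05 and both libraries of KO45 low for most genes.

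The same libraries were low for other gene groups. Members lay below the mean of their group in 71 of 77 genes in the DN3 library of WT05, 72 in DN3 of KO45 and 71 in DN4 of KO45, and cytosolic ribosomal protein genes did so in 76, 65 and 77 of 78. Nuclear complex I genes did so in 34, 35 and 34 of 36. Genes with under 1500 exon bases had median log2 deviations of -0.248, -0.062 and -0.079 there, against -0.002, 0.012 and 0.018 for longer genes. The part of this in the members' results was not tested.

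In Wt thymocytes, mitochondrial ribosomal proteins were mostly fitted slightly lower in DN4 than in DN3, except under scaling by library totals, and few single genes passed the test. Of 77 genes, 3 fell, Mrps25, Mrpl19 and Mrps10, and 0 rose, where a call means an edgeR p that stays under 0.05 after Benjamini-Hochberg adjustment over all genes tested. Over all 12691 genes tested, 22.9% were called in either direction and 9.43% were called lower, against 3.9% of the members called lower. Among genes at the members' levels 20.9% were called. At an unadjusted p under 0.05 there were 15 of 77 (35.5% of all genes), and this count depended on the library. It was 33 without the DN3 library of WT05, against 5183 of 13213 genes, and 3 without that of WT48, against 4148 of 13153 genes. The fitted change was below 0 for 63 of 77 (81.8%, against 52.7% of all genes), with a median log2 fold change of -0.16 over 48 large subunit genes and -0.15 over 29 small subunit genes, against -0.03 over all genes. Leaving out the DN3 library of WT05 gave 75 of 77 below 0 and medians of -0.25 and -0.24, and leaving out that of WT48 gave 51 of 77 and -0.09 for either subunit. With all libraries the 77 changes were smaller than 0.5 on the log2 scale, as were 65.5% over all genes and 76.5% at the members' levels. In the same fit the 95% interval of the log2 fold change lay inside 1 either way for 77 of 77 genes and inside 0.5 for 41. Bulk RNA does not tell fewer cells of a type from less RNA per cell.

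Mrps25, a small subunit protein found only in mitochondria, was at 41, 36.7 and 38 CPM in the DN3 Wt libraries of WT05, WT46 and WT48 and at 29.6, 27.3, 28.2 and 28.3 in the DN4 Wt libraries of WT05, WT40, WT46 and WT48. The groups do not overlap, and it fell by 0.47 on the log2 scale (SE 0.11, adjusted p = 0.0174, edgeR). Mrpl19, a large subunit protein on the face towards the small subunit, was at 59.7, 75 and 76.6 CPM in DN3 and at 46.6, 52.8, 56.3 and 53.4 in DN4 of the same mice. It fell by 0.46 (SE 0.126, adjusted p = 0.0308, edgeR), with groups that do not overlap. Mrps10, a protein of the small subunit head, was at 42.1, 40.5 and 38.3 CPM in DN3 and at 28.9, 27.2, 36 and 26.9 in DN4. It fell by 0.46 (SE 0.14, adjusted p = 0.0453, edgeR), again without overlap, though WT46 stayed close to the DN3 libraries.

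The groups did not overlap for 12 of the 77 genes, against 35% of all genes tested. None of the 3 calls held in the fit with the mouse as a block, which leaves out WT40 (adjusted p = 0.0914 for Mrps25, 0.0649 for Mrpl19 and 0.123 for Mrps10, edgeR), where 0 of 77 genes were called, against 19.7% of all genes in either direction and 6.65% lower. Leaving out WT40 without a block also gave 0 of 77, against 866 of 12531 genes called lower and 1480 higher. Without the DN3 library of WT05, 13 of 77 genes (16.9%) were called lower and 0 higher, against 11.4% of all genes called lower. Mrps25 and Mrpl19 were among them and Mrps10 was not (adjusted p = 0.0735, edgeR), and the median log2 fold change over the 77 genes was -0.24. In that fit Mrps34 was at -0.59 (SE 0.116, adjusted p = 0.0113, edgeR), Mrpl19 at -0.57, Mrps6 at -0.53 and Mrpl23 at -0.50, of which Mrpl23 was not called. The other genes called there were Mrpl2, Mrpl21, Mrpl33, Mrpl36, Mrpl39, Mrpl47, Mrpl50, Mrps12 and Mrps17, at -0.47 to -0.30. Leaving out the DN3 library of WT48 gave 0 calls among the 77 genes, against 776 of 13153 genes called lower and 1142 higher. Under scaling by library totals, which moved the median of all genes to 0.16, 38 of 77 genes were below 0 and 0 were called, and over all genes 1386 were called higher and 396 lower, against 1706 and 1197 with TMM.

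**Figure D3:**
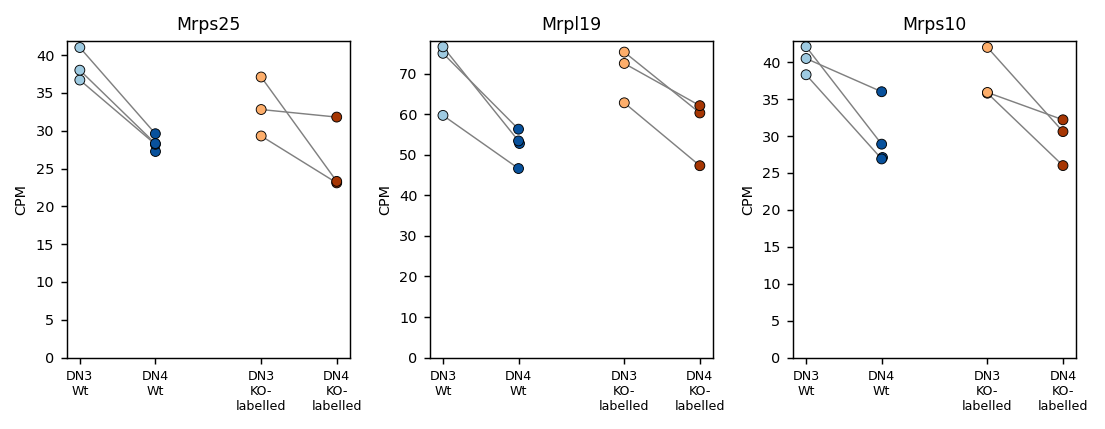
CPM of Mrps25, Mrpl19 and Mrps10 by stage and genotype, with an axis from 0. Points are libraries and lines join the 2 libraries of a mouse. In Wt each DN4 library lies below each DN3 library for all 3 genes, and in KO-labelled mice this holds for Mrpl19 and Mrps10 but not for Mrps25.

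In KO-labelled mice most of the genes were again fitted slightly lower in DN4, and the count of calls depended on the design. Without a block, 0 of 77 genes were called (edgeR), against 18.6% of 12580 genes in either direction and 7.34% lower, and 11 had an unadjusted p under 0.05 (33% of all genes). DESeq2 called 2 of 77, both lower, against 9.39% of all genes called lower. With a term for the mouse that links libraries of one animal (the block), 17 of 77 genes fell (22.1%) and 0 rose, against 37.2% of all genes called and 18% called lower. The fitted change without a block was below 0 for 65 of 77 genes (84.4%, against 52.5% of all genes), with medians of -0.16 for the large and -0.20 for the small subunit. These medians were -0.09 and -0.12, with 55 of 77 genes below 0, without the DN4 library of KO45. Without that of KO51 they were -0.25 and -0.31, with 70 of 77 below 0. In that fit 3 of 77 were called lower, against 1045 of 13195 genes called lower and 1745 higher. With all libraries the change was below 0.5 in size for 76 of 77 genes, and the groups did not overlap for 17 of 77 (38.7% of all genes). The exception in size was Mrps6, singled out after its values were seen, which codes for a bacterial-type small subunit protein. It was at 22.6, 22 and 24.9 CPM in DN3 and 13.7, 16.5 and 18.7 in DN4 of KO45, KO49 and KO51, a log2 fold change of -0.53 (SE 0.172, adjusted p = 0.0688, edgeR). It was called lower with the block, by DESeq2 and without the DN4 library of KO51.

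The genes called in Wt lay on the same side in KO-labelled mice. Mrps25 was at 29.3, 37.1 and 32.8 CPM in DN3 and 23.1, 23.3 and 31.8 in DN4, a log2 fold change of -0.37 (SE 0.171, adjusted p = 0.179, edgeR), and the groups overlap through KO51. Mrpl19 was at 62.8, 75.3 and 72.5 in DN3 and 47.3, 60.3 and 62.1 in DN4, a change of -0.33 (SE 0.138, adjusted p = 0.135, edgeR) without overlap. Mrps10 was at 35.8, 35.9 and 42 in DN3 and 26, 32.2 and 30.6 in DN4, a change of -0.38 (SE 0.139, adjusted p = 0.0984, edgeR), also without overlap. With the block, Mrpl19 had an adjusted p of 0.0134, Mrps10 of 0.0228 and Mrps25 of 0.0583 (edgeR), so Mrps25 was not called. In the fit without the DN4 library of KO51, Mrps25 was called lower, at -0.55.

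**Figure D4:**
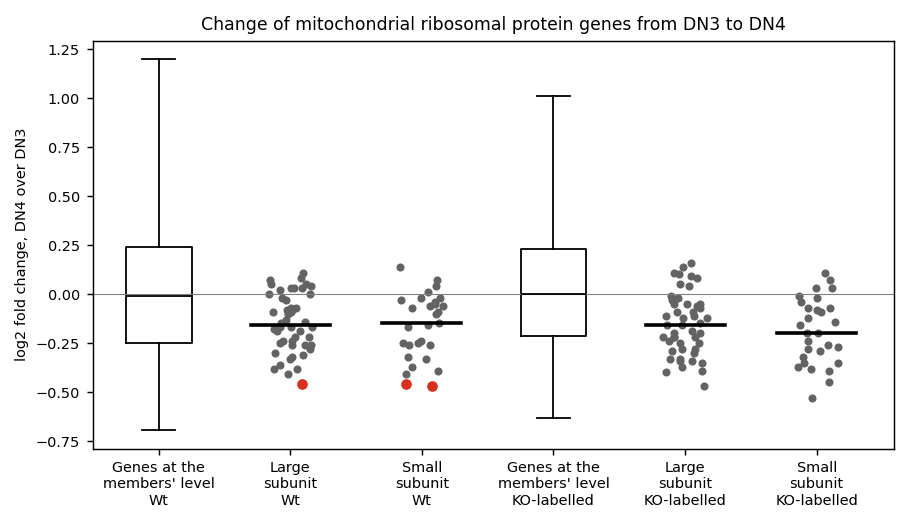
Fitted log2 fold change of DN4 over DN3 for each tested gene, by subunit, in Wt (left) and KO-labelled mice (right). Grey points are genes not called, red points the 3 called in Wt, thick lines medians. Boxes show the quartiles of all genes at the same range of levels with whiskers at the 5th and 95th percentiles, and the members lie in a narrow band with medians of -0.16, -0.15, -0.16 and -0.20.

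Within single mice the size of the shift varied. Of 77 genes, 60 were lower in DN4 than in DN3 in KO45, 58 in KO49, 46 in KO51, 35 in WT05, 56 in WT46 and 72 in WT48, or 45.5% to 93.5% of the members, against 47.1% to 49% of all genes. Lower in all 3 KO-labelled mice were 37 genes (48.1%, against 30.8% of 13361 genes), in all 3 Wt mice 30 (39%, against 23.9%) and in all 6 mice 21 (27.3%, against 17.6%). Without WT05, 52 genes were lower in both other Wt mice (67.5%, against 32.8%) and 30 in the 5 remaining mice (39%, against 22.2%). The 21 genes include Mrpl11 and Mrpl12 of the stalk, beside Mrps25, Mrpl19 and Mrps10. No member was higher in every mouse, against 21.9% of all genes. Higher in all 3 KO-labelled mice were 7 (9.09%, against 34% of all genes), among them Mrpl58, a peptide release factor that became part of the large subunit.

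Markers of other cells moved with the stage. The 9 B cell genes listed summed to 286 to 430 CPM in DN3 and 898 to 5100 in DN4 libraries, and 8 of 9 were called higher in DN4 in either genotype, while 0 of 10 proliferation genes were called. Pax5, a transcription factor of B cells, was at 34.1 to 387 CPM in DN4 Wt, against 0.293 to 2.3 in DN3 Wt. The 5 genes of immature single positive and double positive cells summed to 197 to 361 CPM in DN3 and 962 to 3692 in DN4, and 5 of 5 were called higher. Of 5 tested NK and innate lymphoid genes, 4 were called higher in Wt and 3 in KO-labelled mice. The sums over this list were 240 to 293 CPM in DN3 and 359 to 459 in DN4 of Wt, which do not overlap. In KO-labelled mice they were 276 to 326 and 233 to 336, which do. Gzma made up most of these sums, with DN3 and DN4 means of 236 and 298 CPM in Wt and 264 and 240 in KO-labelled mice. It was the only tested gene of this list fitted lower in KO-labelled mice, where 4 were fitted higher. Of 4 gamma delta T cell genes, 2 were called higher and 1 lower in Wt and 2 lower in KO-labelled mice. Of 5 tested myeloid genes, 2 were called higher and 1 lower in Wt and 1 lower in KO-labelled mice, and of 3 tested stromal genes 1 was lower in either genotype. The gamma delta sums overlapped between the stages in Wt but not in KO-labelled mice (909 to 1188 CPM in DN3 and 544 to 790 in DN4), the myeloid and stromal sums overlapped in either genotype, and the 6 erythroid genes summed to 1.42 CPM or less in DN3 and 1.1 to 6.19 in DN4. In order of the B cell sum in their DN4 library, the mice KO51, WT46, KO45, WT05, KO49 and WT48 had sums of 898, 1222, 2138, 2863, 3250 and 5100 CPM, and the median log2 change of the 77 genes from DN3 to DN4 was -0.05, -0.10, -0.20, 0.04, -0.20 and -0.32. In the same order, the sums of the immature single positive and double positive genes were 1498, 1664, 3692, 1114, 1146 and 962 CPM. The part of these cells in the stage result was not tested.

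Between the genotypes no gene of the family passed the test at either stage. In DN4, 0 of 77 genes were called (edgeR), against 0.0535% of 13084 genes and 0.0713% of those at the members' levels, 1 had an unadjusted p under 0.05 (5.46% of all genes and 5.08% at these levels), and DESeq2 and limma-voom called 0. The median log2 difference of KO-labelled from Wt was 0.06 over the large and 0.03 over the small subunit, with 50 of 77 genes fitted higher. Without the DN4 library of KO51 the medians were 0.00 and -0.06 with 37 of 77 genes higher, and without that of KO45 they were 0.09 and 0.11 with 66 of 77 higher, so the side on which most genes lay depended on 1 library. With all libraries the 77 differences were under 0.5 in size, and the 95% interval lay inside 0.5 either way for 66 of 77 genes and inside 1 for all 77. The gene with the smallest p was Mrpl1, which forms the mobile arm beside the exit site for transfer RNA. It was at 29.4, 27.6, 28.3 and 25.7 CPM in DN4 of WT05, WT40, WT46 and WT48 and at 20.8, 24.3 and 18.4 in DN4 of KO45, KO49 and KO51, groups that do not overlap, with a log2 difference of -0.36 (SE 0.126, adjusted p = 0.883, edgeR). Mrpl58 was at 50.4, 70.7, 72 and 51.7 CPM in DN4 Wt and at 76.5, 71.2 and 78.2 in DN4 KO-labelled libraries, a log2 difference of 0.33 (SE 0.16, adjusted p = 0.883, edgeR), with overlap. Mrpl52, a large subunit protein found only in mitochondria, was at 33, 35.9, 37.8 and 38.7 CPM in DN4 Wt and at 35.2, 41.9 and 47.5 in DN4 KO-labelled libraries, which overlap. It had a log2 difference of 0.22 (SE 0.126, adjusted p = 0.887, edgeR), which ran from 0.13 to 0.32 as each library was left out.

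In DN3, 0 of 77 genes were called (edgeR), as were 0% of 12105 genes, and 0 had an unadjusted p under 0.05 (1.39% of all genes and 0.985% at the members' levels), with 0 called by DESeq2 and limma-voom. The median log2 difference was 0.01 for both subunits, and 42 of 77 genes were fitted higher in KO-labelled cells, 77 with library totals and 21 without the DN3 library of WT05, where the medians were -0.07 and -0.06. Leaving out each library in turn put the median over the 77 genes between -0.07 and 0.10. The 95% interval lay inside 0.5 for 53 of 77 genes and inside 1 for all 77. Mrps25, Mrpl52 and Mrpl3 had the smallest p. Mrps25 had a log2 difference of -0.23 (SE 0.145), Mrpl52 of 0.33 (SE 0.227) and Mrpl3, a core protein of the large subunit, of -0.17 (SE 0.124), each with an adjusted p of 1 (edgeR). Mrpl3 was at 79, 75.5 and 75.4 CPM in DN3 Wt and at 65.8, 74.9 and 64 in DN3 KO-labelled libraries, which do not overlap. The signs of Mrps25 and Mrpl3 turned under scaling by library totals. Without the library of WT05 the difference of Mrpl52 was 0.16, and without those of KO49 and KO45 it was 0.21 and 0.49. Mrps25 was at -0.15 without the library of KO45.

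No difference between the genotypes in the change from DN3 to DN4 passed the test of that difference. In the interaction of stage and genotype 0 of 77 genes were called (edgeR), as were 0% of 13361 genes, and 0 had an unadjusted p under 0.05 (3.59% of all genes and 3.56% at the members' levels), with 0 called by DESeq2 and limma-voom. The median was -0.02 for the large and -0.03 for the small subunit, with 46 of 77 genes below 0, 68 with library totals and 13 without the DN3 library of WT05, where the medians were 0.09 and 0.07. Over all the fits that leave out 1 library, the median of the 77 genes lay between -0.09 and 0.08. The 95% interval lay inside 1 for 77 of 77 genes but inside 0.5 for only 23, so smaller differences of the stage change were not detectable here. The smallest p belonged to Mrpl32, a zinc-binding protein processed by the m-AAA protease, at -0.36 (SE 0.18), Mrpl39 at 0.28 (SE 0.144) and Mrpl1 at -0.40 (SE 0.225), each with an adjusted p of 1 (edgeR). Mrpl1 was at -0.19 without the DN3 library of KO49, and with library totals Mrpl39 was at 0.10, Mrpl32 at -0.54 and Mrpl1 at -0.60. Mrpl32 was at 26.3, 27.9 and 29.2 CPM in DN3 Wt, 32.1, 28.3, 28.9 and 26 in DN4 Wt, 27.9, 31.7 and 33.7 in DN3 KO-labelled and 22.3, 25.4 and 27.4 in DN4 KO-labelled libraries, so its stages separated in KO-labelled mice and overlapped in Wt.

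The sums over the 2 subunits kept a narrow ratio. Large subunit genes summed to 2087, 2514 and 2574 CPM in DN3 of WT05, WT46 and WT48, to 2135, 2261, 2335 and 2099 in DN4 of WT05, WT40, WT46 and WT48, to 2214, 2578 and 2540 in DN3 of KO45, KO49 and KO51, and to 1984, 2314 and 2456 in their DN4. Small subunit genes summed to 1048 to 1288, 1049 to 1176, 1096 to 1301 and 948.8 to 1212 CPM in the same groups. The sums of all groups overlap, and KO45 was the lowest KO-labelled mouse at both stages. The ratio of the large to the small sum stayed between 1.981 and 2.091 over the 13 libraries, with means of 1.995 ± 0.00272 (SD, n = 3) in DN3 Wt, 2.01 ± 0.0265 (SD, n = 4) in DN4 Wt, 1.998 ± 0.0198 (SD, n = 3) in DN3 KO-labelled and 2.054 ± 0.0332 (SD, n = 3) in DN4 KO-labelled libraries. The DN4 KO-labelled libraries, at 2.091, 2.046 and 2.026, lay above their DN3 libraries and overlapped DN4 Wt, an overlap that ended when genes were assigned by structure, as given below. No test was run on these sums. No ratio was taken for other gene sets of like size, so the narrow range is not shown to be particular to this family.

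**Figure D5:**
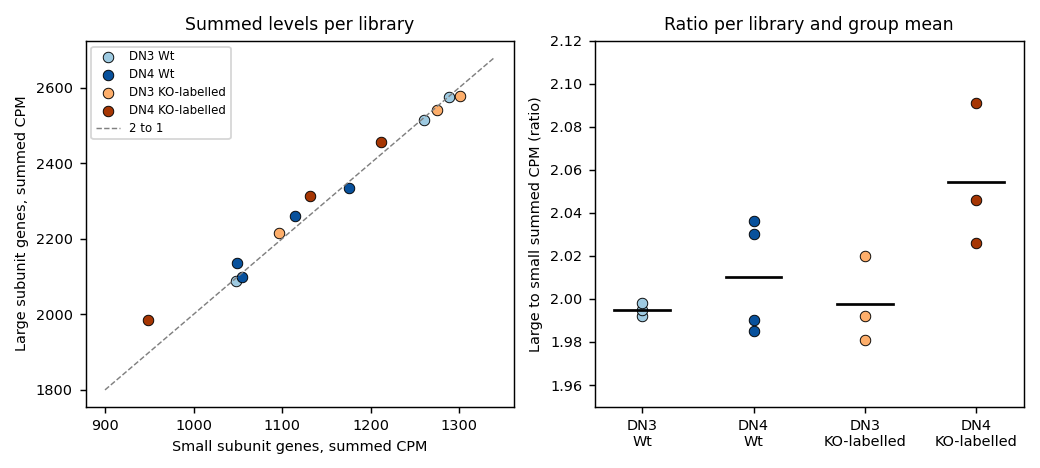
Left, summed CPM of large against small subunit genes in each of the 13 libraries, with a dashed line at a ratio of 2. Right, the ratio per library (points) and the mean of each group (line), on an axis that does not start at 0. Libraries lie along the line, with ratios from 1.981 to 2.091.

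Some symbols do not match the place of the protein. Mrps30 and Mrps18a belong to the large subunit in the solved structures, and Mrps36 is a subunit of the 2-oxoglutarate dehydrogenase complex and not of the ribosome. With Mrps30 and Mrps18a moved and Mrps36 left out, the sums over 51 large and 26 small subunit genes gave ratios of 2.232 to 2.294 in DN3 libraries, 2.261 to 2.306 in DN4 Wt and 2.368, 2.324 and 2.313 in DN4 of KO45, KO49 and KO51. With this assignment the DN4 KO-labelled libraries lay above all others, and no test was run on the ratio. In Wt the log2 fold change from DN3 to DN4 was -0.16 (SE 0.126) for Mrps30, -0.25 (SE 0.125) for Mrps18a and -0.02 (SE 0.193) for Mrps36, none of them called. Without the DN3 library of WT05 Mrps30 was at -0.25, Mrps36 at -0.16 and Mrps18c at -0.23, also not called. The 3 genes named Mrps18 are paralogs that each occupy their own place. Mrps18b, in the small subunit, was at 40.6 ± 2.64 CPM (SD, n = 3) in DN3 Wt and 31.6 ± 4.25 (SD, n = 4) in DN4 Wt with a log2 fold change of -0.39 (SE 0.142), and Mrps18c, the homologue of the bacterial protein, was at 21.6 ± 4.2 (SD, n = 3) and 20.9 ± 1.62 (SD, n = 4), with -0.09 (SE 0.164). Their share of 30.2% and 22.9% of 50-base stretches with other genes leaves both uncertain.

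Among the genes of the stalk regions, in Wt the log2 fold change from DN3 to DN4 was -0.00 (SE 0.122) for Mrpl10, -0.38 (SE 0.12) for Mrpl11 of the stalk base, -0.28 (SE 0.139) for Mrpl12 and -0.07 (SE 0.118) for Mrpl1, none called. In KO-labelled mice it was -0.05 (SE 0.107), -0.39 (SE 0.165), -0.34 (SE 0.24) and -0.47 (SE 0.195), and the last 3 were called with the mouse as a block, where 22.1% of the members and 18% of all genes were called lower. Other members whose structure-based name differs from the symbol had small changes in Wt. Mrps28 had a log2 fold change of -0.26 (SE 0.138), Mrps24 of 0.01 (SE 0.15), Mrpl47 of -0.26 (SE 0.142), Mrpl55 of -0.14 (SE 0.148) and Mrpl57 of 0.03 (SE 0.149), none called. Without the DN3 library of WT05, Mrpl47 was called at -0.38 (adjusted p = 0.04, edgeR), Mrpl55 was at -0.26, Mrpl57 at -0.12 and Mrps24 at -0.06. By origin, the median change was -0.17 over 46 genes with a bacterial homologue and -0.10 over 30 found only in mitochondria in Wt, and -0.20 and -0.12 in KO-labelled mice. With DN3 of WT05 left out the Wt medians were -0.27 and -0.24.

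Other genes of mitochondrial translation were called lower from DN3 to DN4 in 4 of 46 in Wt (8.7%, against 9.43% of all genes) and in 2 of 46 in KO-labelled mice (4.35%, against 7.34%). With the mouse as a block 0 were called in Wt (6.65% of all genes lower) and 10 lower (21.7%, against 18%) and 1 higher in KO-labelled mice. Leaving out DN3 of WT05 gave 8 lower in Wt (17.4%, against 11.4%). Of 5 further ribosomal proteins with other names, 1 fell from DN3 to DN4 in Wt, Ptcd3 of the small subunit, from 124 ± 24 CPM (SD, n = 3) to 90.8 ± 4.62 (SD, n = 4), a log2 fold change of -0.47 (SE 0.135, adjusted p = 0.0376, edgeR), and 0 in KO-labelled mice. Of 23 assembly and RNA modification genes, 1 fell in each genotype. In Wt it was Mrm3, a methyltransferase of the large subunit RNA, with -0.53 (SE 0.141), and in KO-labelled mice Fastkd2, an RNA-binding assembly factor, with -0.52 (SE 0.142). Of 18 translation factors, 2 fell in Wt, Lrpprc, which stabilises mitochondrial messenger RNA, with -0.58 (SE 0.141) and Guf1, a ribosomal GTPase, with -0.44 (SE 0.105), and Guf1 also fell in KO-labelled mice with -0.73 (SE 0.135). None of these genes was called between the genotypes.

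The messenger RNAs that this ribosome reads had larger fitted differences than those of its proteins. Of 10 tested mtDNA-encoded genes, 3 (30%, against 0.0535% of all genes) were lower in DN4 KO-labelled than in DN4 Wt cells, mt-Nd5, mt-Cytb and mt-Co1. The median log2 difference over the 10 was -1.50, while the members' median there was 0.05. Among the 10, mt-Co2, mt-Co3 and mt-Atp6 had group means of only 0.402 to 3.17 CPM, so their values are uncertain. The untested mt-Nd3, mt-Nd4l and mt-Atp8 had group means of 0.855 CPM or less. mt-Co1, a catalytic subunit of cytochrome c oxidase, was at 7653 ± 764 CPM (SD, n = 4) in DN4 Wt and 2841 ± 168 (SD, n = 3) in DN4 KO-labelled libraries, a log2 difference of -1.40 (SE 0.127, adjusted p = 0.022, edgeR). None of the 3 calls held without the DN4 library of any one of KO45, KO49, KO51, WT05, WT40 or WT46. In DN3 0 of 10 were called, with a median of -1.04 that was -0.34 without the library of WT05. That library had a summed level of 33703 CPM over the mtDNA-encoded genes, against 13133 and 11575 in WT46 and WT48 and 9571, 7914 and 11143 in KO45, KO49 and KO51. From DN3 to DN4, 6 of 8 tested fell in KO-labelled mice (75%, against 7.34% of all genes called lower, median -0.85), and leaving out each library in turn gave 2 to 7. In Wt 0 of 10 were called, with a median of -0.38 that turned to 0.29 without the DN3 library of WT05. Among other nuclear families, 77 cytosolic ribosomal protein genes had a median change of 0.01 from DN3 to DN4 in Wt, 78 had -0.10 in KO-labelled mice, 36 nuclear complex I genes had -0.04 and -0.09, and 0 were called in either genotype. Leaving out DN3 of WT05 gave Wt medians of -0.15 for both families, with 5 and 2 genes called lower.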

How the data were processed

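The members and the gene lists were chosen with earlier results of these data known. The deposited file holds whole-number read counts per gene, which the authors made from TruSeq stranded mRNA libraries read on an Illumina HiSeq, with Cutadapt, STAR and featureCounts on mm10 per the labels and the methods, and the strand setting and versions are not given in the sources used here. Identifiers were matched to GENCODE M21 on GRCm38 (47310 of 47937 without version). Each comparison used edgeR 4.0.16 (quasi-likelihood, R 4.3.3) on its own groups after filterByExpr (minimum count 10) and TMM, with Benjamini-Hochberg adjustment over all genes and a threshold of 0.05, and the interaction used all 13 libraries. Intervals are 95% t intervals from the fitted SE. Tests are two-sided. p-values of the main fits measure the spread between libraries of a group, each from a different mouse. In the stage comparisons and the interaction they ignore that most mice gave both stages. Those of the block fits measure the spread of the change within mice. Called members whose groups do not overlap, the 3 smallest p between genotypes, and the highest and lowest levels are named, beside members with split names, the stalk, and up to 3 called genes per related list. The fits were also run on simulated counts, without pairing by mouse and with changes larger than those of nearly all members. This says nothing of how well changes as small as the members' are found.

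The mouse pairs the stages. Deviations of its 2 libraries from their group means correlated at 0.46, 0.213 and 0.331 for KO45, KO49 and KO51 and at 0.145, 0.124 and 0.182 for WT05, WT46 and WT48 over 13361 genes. Alternatives were DESeq2 1.42.0, limma-voom 3.58.1, other scalings, filters and thresholds, each library left out, and the block. The within-mouse tallies and coefficients of variation without the DN3 library of WT05 were added after the data were seen. An item withheld for evaluation is not reported here.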

Additional observations from a re-analysis of the deposited data

Results flagged for a closer look

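Mrps36, the gene named for the small subunit whose protein belongs to the 2-oxoglutarate dehydrogenase complex, was at 26.1 CPM in the DN4 Wt library of WT46, while the other 3 DN4 Wt libraries lay at 19 to 19.8. The gap to the nearest library was 0.883 of the range of the group. It was the only such gap among 29 values examined in the DN4 Wt group, the only group with 4 libraries. Chance flags about 1 in 20 values, so 1 among 29 is no more than chance gives.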

How the results depend on the processing

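Every member stayed uncalled between the genotypes and in the interaction in all alternatives run. In Wt the number of members lower in DN4, 3 as reported, was 0 with library totals, without the filter, with the mouse as a replicate block and with a log2 fold change of 0.5 required, 5 with DESeq2 and 10 at an adjusted p of 0.1, and leaving out each library gave 0 to 13 (13 without DN3 of WT05, 0 without DN3 of WT48 or DN4 of WT40). In KO-labelled mice the count of 0 became 1 with library totals, 2 with DESeq2, 17 with the replicate block and 4 at an adjusted p of 0.1, and leaving out each library gave 0 to 3 (3 without DN4 of KO51). Over all genes, DESeq2 called 11.4% lower in Wt and 9.39% in KO-labelled mice. Leaving out each library gave 718 to 1503 genes lower in Wt and 547 to 1045 in KO-labelled mice. The share of all genes at an adjusted p of 0.1 was not taken. Library totals moved the median over all genes to 0.16 in Wt, 0.23 between genotypes in DN3 and -0.20 in the interaction. In the comparisons that do not use the DN3 library of WT05, this median was -0.03 (stages in KO-labelled mice) and 0.01 (genotypes in DN4). With library totals the small subunit median in Wt was 0.02, and the medians between genotypes in DN3 were 0.21 (large) and 0.19 (small). The small subunit median of the interaction was -0.18, and Mrpl3 and Mrps25 in DN3 turned to 0.07 and 0.02. The replicate block changed no call in the interaction. Over all genes, the stage calls in KO-labelled mice were 2338 of 12580 genes without and 4899 of 13185 with the block, whose design also lets more genes past the filter, and DESeq2 called 7 higher and 43 lower by genotype in DN4, against 0 and 7. For single genes the median half-width of the 95% interval was 0.32 in Wt and 0.36 in KO-labelled mice. Leaving out each library in turn, Mrps10 lost its Wt call in 6 of 7 fits, Mrpl19 in 5 and Mrps25 in 2. The cause of these changes was not tested.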
